A study of Mus musculus with 6 samples.

Results

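The genes described here carry out mitosis. They are 44 genes of mitotic entry, the spindle, the kinetochore, the spindle checkpoint, chromosome condensation and cytokinesis. The list was drawn up by function and not by values, but with earlier results of these data known. Of the 44, 39 had a probe that carried their symbol on the array, and 31 were measured, that is, had a probe whose detection p-value was below 0.05 on 3 or more of the 6 arrays. The 31 stand among 7967 genes measured. They were followed in hematopoietic stem and progenitor cells from the marrow of C57Bl/6 mice, sorted as L-S+K+ (free of lineage markers, with Sca-1 and Kit on the surface). In 3 cultures the cells were kept for 24 h with 1 mM valproic acid (VPA), an antiepileptic drug known to block histone deacetylases, and 3 control cultures had the growth factors alone. All 6 cultures contained serum, and murine SCF and GM-CSF as growth factors. Each culture's total RNA was hybridised to 1 single-colour Illumina BeadChip. The series design calls the triplicates independent and biological, and nothing in the labels says how many animals a culture pooled.

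Cells enter mitosis when cyclin-dependent kinase 1, bound to cyclin A or B, is freed of inhibitory phosphate by the CDC25 phosphatases. The kinetochores then bind spindle microtubules while the spindle checkpoint holds back the anaphase promoting complex, and once CDC20 activates that ubiquitin ligase, cyclin B and securin are destroyed and separase splits the sister chromatids. Most transcripts of these proteins accumulate late in the cell cycle, so in a mixed population their level is widely used as a gauge of how many cells are dividing.

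Mitotic genes share promoter elements, the cell cycle genes homology region (CHR) and CCAAT boxes, and the promoters of 4 genes followed below are shown because they hold both. The 250 bases before the RefSeq gene start (build GRCm38.p6) were searched on both strands for TTTGAA or TTCGAA as the CHR and for CCAAT. RefSeq promoters were at hand for 36 of the 44 genes, 39 promoters in all, and Ccna2, Cdc25c, Aurkb, Spc24, Incenp, Tpx2, Kif20a and Smc4 had no entry in the table. In the sequences the CHR and CCAAT matches of either strand are in capitals.
Cdk1, chr10:69352913-69353162, minus strand: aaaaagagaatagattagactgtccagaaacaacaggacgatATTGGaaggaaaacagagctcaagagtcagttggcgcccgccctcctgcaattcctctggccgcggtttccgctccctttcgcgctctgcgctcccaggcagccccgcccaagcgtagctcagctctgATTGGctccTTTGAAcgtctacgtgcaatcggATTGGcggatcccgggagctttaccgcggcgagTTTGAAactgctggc
Cdc20, chr4:118437344-118437593, minus strand: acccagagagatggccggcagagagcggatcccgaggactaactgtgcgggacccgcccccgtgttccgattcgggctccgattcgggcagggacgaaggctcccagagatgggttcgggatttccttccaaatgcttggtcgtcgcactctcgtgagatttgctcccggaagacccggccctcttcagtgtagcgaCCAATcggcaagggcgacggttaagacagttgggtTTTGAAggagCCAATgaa
Top2a, chr11:99024190-99024439, minus strand: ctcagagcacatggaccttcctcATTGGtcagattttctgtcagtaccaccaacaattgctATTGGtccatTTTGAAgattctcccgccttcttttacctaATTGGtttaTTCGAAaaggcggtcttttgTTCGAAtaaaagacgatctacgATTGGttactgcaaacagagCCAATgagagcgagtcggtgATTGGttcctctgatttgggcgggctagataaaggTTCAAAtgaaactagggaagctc
Kif11, chr19:37376132-37376381, plus strand: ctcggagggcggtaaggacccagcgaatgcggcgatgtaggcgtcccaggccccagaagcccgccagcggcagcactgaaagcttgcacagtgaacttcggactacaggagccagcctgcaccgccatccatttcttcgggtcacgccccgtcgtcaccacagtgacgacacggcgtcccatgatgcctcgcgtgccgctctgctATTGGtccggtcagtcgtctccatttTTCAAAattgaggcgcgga

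In these 4 promoters the CHR nearest to the start began 15 bases before it in Cdk1, 18 in Cdc20, 23 in Top2a and 19 in Kif11. The Cdk1 promoter had 3 CCAAT boxes, that of Cdc20 2, that of Top2a 6 and that of Kif11 1. A CHR was found in 17 of the 39 promoters, or 43.6%, against 12.2% of the 8412 promoters of all genes measured on the arrays and 17.1% of the 32851 promoters of the whole table. A CCAAT box was found in 30, or 76.9%, against 35.5% and 33.8%. Both elements stood together in 16, or 41.0%, against 4.74% and 6.02%. No CHR match overlapped a CCAAT match in the 39 promoters. These are matches of short letter strings, and binding was not measured.

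The 6 arrays were not alike. On VPA replicate 1 the kept probes had a median raw signal 2.37 times that of undetected probes, against 3.93 to 4.49 on VPA replicates 2 and 3 and 4.45 to 4.82 on the control arrays. After normalization its values correlated at r = 0.947 to 0.957 across probes with VPA replicates 3 and 2, which correlated with each other at 0.991, whereas control pairs reached 0.989 to 0.992. Values without that array are therefore given beside those of all 6. Of 11 progenitor genes with a named probe, Cd34, Flt3, Gata2, Myb, Meis1 and Cd48 were detected on all 6 arrays, Procr on 0 VPA arrays and 3 control arrays, Angpt1 on 0 VPA arrays and 1 control array, and Hlf, Slamf1 and Erg on none. Ly6a and Kit, which encode the surface markers of the sort, were not analysed here. The T cell genes Cd3e and Cd3g were not detected on any array. Over 7 of 8 neutrophil genes measured, the summed log2 signal overlapped, at 70.1 to 76.8 on VPA arrays and 76.0 to 81.9 on controls. Over 4 of 6 mast cell and basophil genes the summed signal was 25.6 to 26.1 against 27.6 to 28.0. However, Prss34, 1 of the 4, had a log2 change of 0.97 (adjusted p = 0.148 by limma). Over 3 of 9 B and T lymphoid genes, all with transcripts in precursors, the sum was 19.5 to 20.2 against 23.8 to 24.8. The ranges of VPA and control arrays also overlapped for 7 stem and progenitor genes (59.4 to 64.3 against 62.8 to 63.5). They overlapped as well for 3 monocyte, macrophage and dendritic cell genes (21.6 to 24.3 against 23.4 to 25.3). So did those of 4 erythroid genes (27.8 to 31.8 against 26.4 to 31.2) and 4 megakaryocyte genes (34.5 to 35.2 against 34.7 to 35.1). Among the erythroid genes the erythropoietin receptor gene Epor had a change of 0.78 (adjusted p = 0.0299 by limma). It was detected on 3 VPA arrays and 0 control arrays, so it passed the filter only through the group where it was higher. Called lower by limma were the macrophage gene Mrc1 (-1.66, adjusted p = 0.0166) and the mast cell gene Cpa3 (-1.54, adjusted p = 0.00681). So were the lymphoid genes Il7r (-1.88, adjusted p = 0.00108) and Dntt (-2.31, adjusted p = 0.00524). Il7r was detected on 0 VPA arrays and 3 control arrays, and Dntt on 1 and 3. Fcer1a, part of the mast cell sum, was also detected on 1 and 3. Il7r, Dntt and Fcer1a thus passed the filter only through the control arrays, where they were higher. The filter favours such genes. The gaps in the lymphoid and mast cell sums, and the calls of Il7r and Dntt, are therefore no independent evidence of a difference. Adgre1, in the list of Mrc1, had a change of 0.78 (adjusted p = 0.290). The part of these marker differences in the values below was not tested.

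Transcripts of the mitotic machinery showed no change with VPA that passed the test. By limma, with p-values adjusted over all probes, 0 of 31 genes were higher and 0 were lower at adjusted p 0.05, where 3.41% of all genes were higher and 0.314% lower. The lowest adjusted p among the 31 was 0.174. At an unadjusted p-value below 0.05, 0 genes were higher, against 11.5% of all genes, and 1, Cdk1, was lower, against 5.59% of all genes. Without VPA replicate 1 the calls were again 0 and 0, where the background was 6.2% higher and 1.59% lower, and the lowest adjusted p was 0.0943. At an unadjusted p-value below 0.05 that fit had 0 genes higher and Cdk1 lower, beside 14% and 10.5% of all genes. With limma's array weights 1 gene was higher (Espl1) and 4 were lower (Cdk1, Ndc80, Cenph and Top2a), where the background was 17.1% and 14.2%. No gene of the 31 passed with VPA replicate 1 left out before normalization (background 5.99% higher and 1.51% lower) or with a replicate block (2.23% and 0.163%). At adjusted p 0.1 none passed in the main fit of 6 arrays (5.13% and 0.728%). Cdk1 lay below 0.1 by limma without VPA replicate 1, left out after (0.0943) or before normalization (0.0972), and with the deposited log2 values (0.0895). In bulk RNA, fewer dividing cells and less transcript per cell cannot be told apart.

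The changes were also small in size. The median log2 change (VPA minus control) of the 31 genes was -0.05 and that of all genes -0.02. Without VPA replicate 1 the medians were -0.06 and -0.005. Of the 31, 19 had a log2 change below 0 and 12 one above 0, where 52% of all genes lay below 0. Without the dim array 21 lay below and 10 above, beside 50.7% of all genes below. The changes ran from -0.63 (Tpx2) to 0.28 (Espl1) over 6 arrays and from -0.42 (Cdk1) to 0.33 (Spc25) over 5. The 95% interval of the change lay within 2-fold in either direction for 27 of 31 genes, against 74.7% of all genes. Ndc80, Cenph, Tpx2 and Ncapd2 were the other 4. Without VPA replicate 1 it lay within 2-fold for 31 of 31, against 89.9% of all genes, and within 1.5-fold for 26 of 31, against 57.9%. With 6 arrays 15 of 31 intervals lay within 1.5-fold, against 31.6% of all genes. The background is unlike in brightness. The median log2 signal per array was 10.09 to 10.26 for the 31 genes and 8.80 to 8.87 for all genes. In a fit of only genes detected on all 6 arrays, 28 of 31 intervals lay within 2-fold, against 79.8%.

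**Figure D1:**
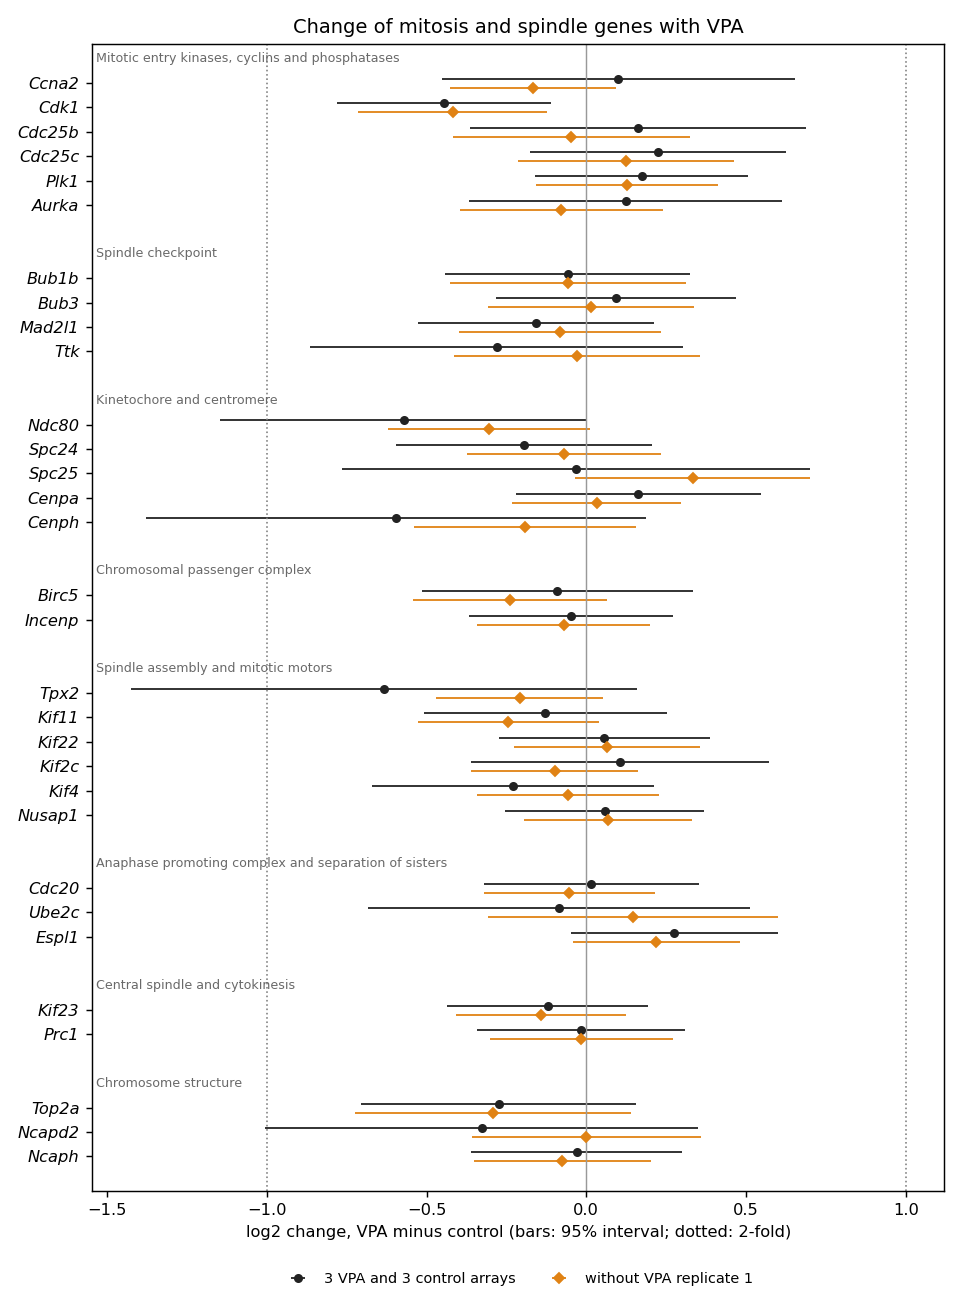
Log2 change with VPA (VPA minus control) of each of the 31 measured mitosis and spindle genes, grouped by role, from 3 VPA and 3 control arrays (black circles) and without VPA replicate 1 (orange diamonds), with 95% intervals as bars and 2-fold changes as dotted lines. With 5 arrays every interval lies between the dotted lines, and with 6 arrays those of Ndc80, Cenph, Tpx2 and Ncapd2 cross the lower one.

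With 1 probe per gene, the kinase of mitotic entry had the lowest adjusted p of the 31. Cdk1 had normalized log2 signals of 9.99, 10.05 and 10.09 on VPA replicates 1 to 3 and of 10.62, 10.37 and 10.47 on control replicates 1 to 3. All 3 VPA arrays lay below all 3 control arrays. Its log2 change was -0.44 ± 0.14 (SE, n = 3 per group), a 1.36-fold lower mean with a 95% interval of -0.78 to -0.11 and an adjusted p of 0.174 by limma. Without VPA replicate 1 the change was -0.42 (adjusted p = 0.0943), so it was nearly as large without the dim array. A second, dimmer Cdk1 probe gave -0.45 ± 0.20 (adjusted p = 0.310), or -0.26 without VPA replicate 1 (adjusted p = 0.247). It was detected on the 3 control arrays alone. Its log2 signals were 4.82, 5.45 and 5.36 on the VPA arrays and 5.55, 5.66 and 5.77 on the controls. Kept only through the group where it was higher, it is no independent support.

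The other genes of mitotic entry had changes on both sides of 0. Plk1, the polo-like kinase that drives centrosome maturation and entry, had log2 signals of 10.92, 10.74 and 10.82 on the VPA arrays and 10.59, 10.60 and 10.77 on the control arrays. The groups overlapped narrowly, and the change was 0.17 ± 0.14 (adjusted p = 0.562), or 0.13 without VPA replicate 1. Aurka, the Aurora kinase of the spindle poles, had 10.78, 10.19 and 10.16 on the VPA arrays and 10.18, 10.14 and 10.44 on the control arrays. Here VPA replicate 1 alone was above all controls, and the change of 0.12 ± 0.21 had the opposite sign, -0.08, without it. Cyclin A2 (Ccna2) showed the same pattern, with 8.12 on VPA replicate 1, 7.31 and 7.33 on the other two and 7.52, 7.50 and 7.45 on the control arrays. Its change was 0.10 ± 0.24 with 6 arrays and -0.17 with 5. The phosphatase genes Cdc25b and Cdc25c had changes of 0.16 and 0.22, or -0.05 and 0.12 without that array, with overlapping groups. A second Cdc25c probe, detected on all 6 arrays, gave 0.40 ± 0.22 (adjusted p = 0.401 by limma), or 0.19 without VPA replicate 1. No probe carried the symbol of cyclin B1 (Ccnb1), and the 1 probe of cyclin B2 (Ccnb2) was not detected on any array.

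The spindle checkpoint genes lay close to control. Mad2l1, whose protein is part of the inhibitor of CDC20, had log2 signals of 11.17, 11.34 and 11.45 on the VPA arrays and 11.63, 11.47 and 11.33 on the control arrays. Its change was -0.16 ± 0.16 (adjusted p = 0.632), or -0.08 without VPA replicate 1, with overlapping groups. The kinase gene Ttk, which starts checkpoint signalling at kinetochores, had 6.01, 6.54 and 6.98 against 6.65, 6.82 and 6.90. VPA replicate 1 was low and VPA replicate 3 highest of all, and the change was -0.28 ± 0.25 with 6 arrays and -0.03 with 5. Bub1b, which encodes BubR1, had a change of -0.06 in both fits, and Bub3 had 0.09 with 6 arrays and 0.015 with 5. The 1 probe of Bub1 was not detected on any array.

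Among kinetochore genes Cenph and Ndc80 had the largest differences with 6 arrays, and Spc25 and Ndc80 with 5. Ndc80, a subunit of the complex that grips microtubules, had log2 signals of 8.20, 8.97 and 9.03 on the VPA arrays and 9.49, 9.23 and 9.20 on the control arrays. The groups did not overlap, and the change was -0.57 ± 0.25 (adjusted p = 0.292), or -0.30 without VPA replicate 1 (adjusted p = 0.214). Cenph, of the inner kinetochore, had 8.41, 9.42 and 9.82 against 9.79, 9.78 and 9.86. VPA replicate 3 lay among the controls and VPA replicate 1 far below, and the change was -0.60 ± 0.34 with 6 arrays and -0.19 with 5. Spc24 and Spc25, partners of Ndc80, had changes of -0.19 and -0.03 with 6 arrays and -0.07 and 0.33 with 5. Cenpa, the centromeric histone H3 variant, had 13.65, 13.28 and 13.23 against 13.21, 13.18 and 13.28. Apart from VPA replicate 1 its values lay within the range of the controls, with a change of 0.16 ± 0.16 (adjusted p = 0.634), or 0.03 without that array. Second probes gave -0.18 for Spc24 and -0.17 for Spc25, or -0.23 and -0.0023 without VPA replicate 1. Nuf2, the fourth subunit of the Ndc80 complex, and the kinesin gene Cenpe had a probe without detection on any array and Cenpf none that carried its symbol.

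The chromosomal passenger complex corrects faulty attachments and guides cytokinesis. Birc5, which encodes its subunit survivin, had log2 signals of 11.60, 11.26 and 11.05 on the VPA arrays and 11.50, 11.40 and 11.29 on the control arrays. VPA replicates 2 and 3 lay below the controls and VPA replicate 1 above them, and the change was -0.09 ± 0.18 (adjusted p = 0.813), or -0.24 without that array (adjusted p = 0.300). Further probes of Birc5 gave -0.40 and -0.18, or -0.64 (adjusted p = 0.0721) and -0.36 without VPA replicate 1. Incenp, the scaffold of the complex, had changes of -0.05 with 6 arrays and -0.07 with 5, and no probe carried the symbol of Aurkb, its kinase.

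Of the spindle assembly genes and motors, Tpx2 differed most with 6 arrays and Kif11 with 5. Tpx2, which activates Aurora A and nucleates microtubules near chromosomes, had log2 signals of 7.96, 9.20 and 9.27 on the VPA arrays and 9.40, 9.46 and 9.48 on the control arrays. All VPA arrays lay below all controls, but VPA replicate 1 by far the most, and the change was -0.63 ± 0.34 (adjusted p = 0.393), or -0.21 without it (adjusted p = 0.293). Kif11, the motor that pushes spindle poles apart, had 10.15, 9.90 and 9.71 against 10.07, 9.99 and 10.08. VPA replicate 1 was the highest array and the other two the lowest, with a change of -0.13 ± 0.16 over 6 arrays and -0.24 over 5 (adjusted p = 0.710 and 0.259). Kif2c, a microtubule depolymerase, had changes of 0.10 and -0.10 in these fits, and the chromosome motor Kif4 had -0.23 and -0.06. Kif22 (0.06 in both fits) and Nusap1 (0.06 and 0.07) stayed near 0.

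At the transition to anaphase, Cdc20 had log2 signals of 12.07, 11.84 and 11.88 on the VPA arrays and 11.90, 11.85 and 11.99 on the control arrays. The groups overlapped, and the change was 0.02 ± 0.14 (adjusted p = 0.960, 95% interval -0.32 to 0.35), or -0.05 without VPA replicate 1. Espl1, which encodes separase, was the one gene whose VPA arrays all lay above the controls, with 9.78, 9.65 and 9.58 against 9.38, 9.43 and 9.37. Its change was 0.28 ± 0.14 (adjusted p = 0.365), or 0.22 without the dim array (adjusted p = 0.270). Ube2c, the ubiquitin-conjugating enzyme of the anaphase promoting complex, had a change of -0.08, or 0.15 without that array. The probe of Pttg1, which encodes securin, was detected on 0 VPA arrays and 2 control arrays and did not pass the filter.

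In cytokinesis the kinesin gene Kif23 had log2 signals of 10.29, 10.21 and 10.24 on the VPA arrays and 10.39, 10.30 and 10.42 on the control arrays. The groups did not overlap, by a narrow gap, and the change was -0.12 ± 0.14 (adjusted p = 0.667), or -0.14 without VPA replicate 1. Prc1, which bundles the central spindle, had changes of -0.02 in both fits. The probe of Ect2 was detected on 1 VPA array, that of Kif20a on none, and Racgap1 had none of its symbol.

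Of the genes that shape chromosomes, Top2a, which encodes DNA topoisomerase II alpha, had log2 signals of 11.02, 10.79 and 11.14 on the VPA arrays and 11.52, 11.22 and 11.03 on the control arrays. The groups overlapped and the controls were themselves spread, and the change was -0.27 ± 0.18 (adjusted p = 0.484), or -0.29 without VPA replicate 1. The condensin subunit gene Ncapd2 had 11.02, 11.95 and 12.05 against 12.19, 12.05 and 11.77. VPA replicate 1 stood far below the other 5 arrays, and the change was -0.33 ± 0.29 with it and 0.00063 without it. Ncaph, another condensin subunit, had changes of -0.03 and -0.07. The probe of Smc2 was not detected on any array and Smc4 had none of its symbol.

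**Figure D2:**
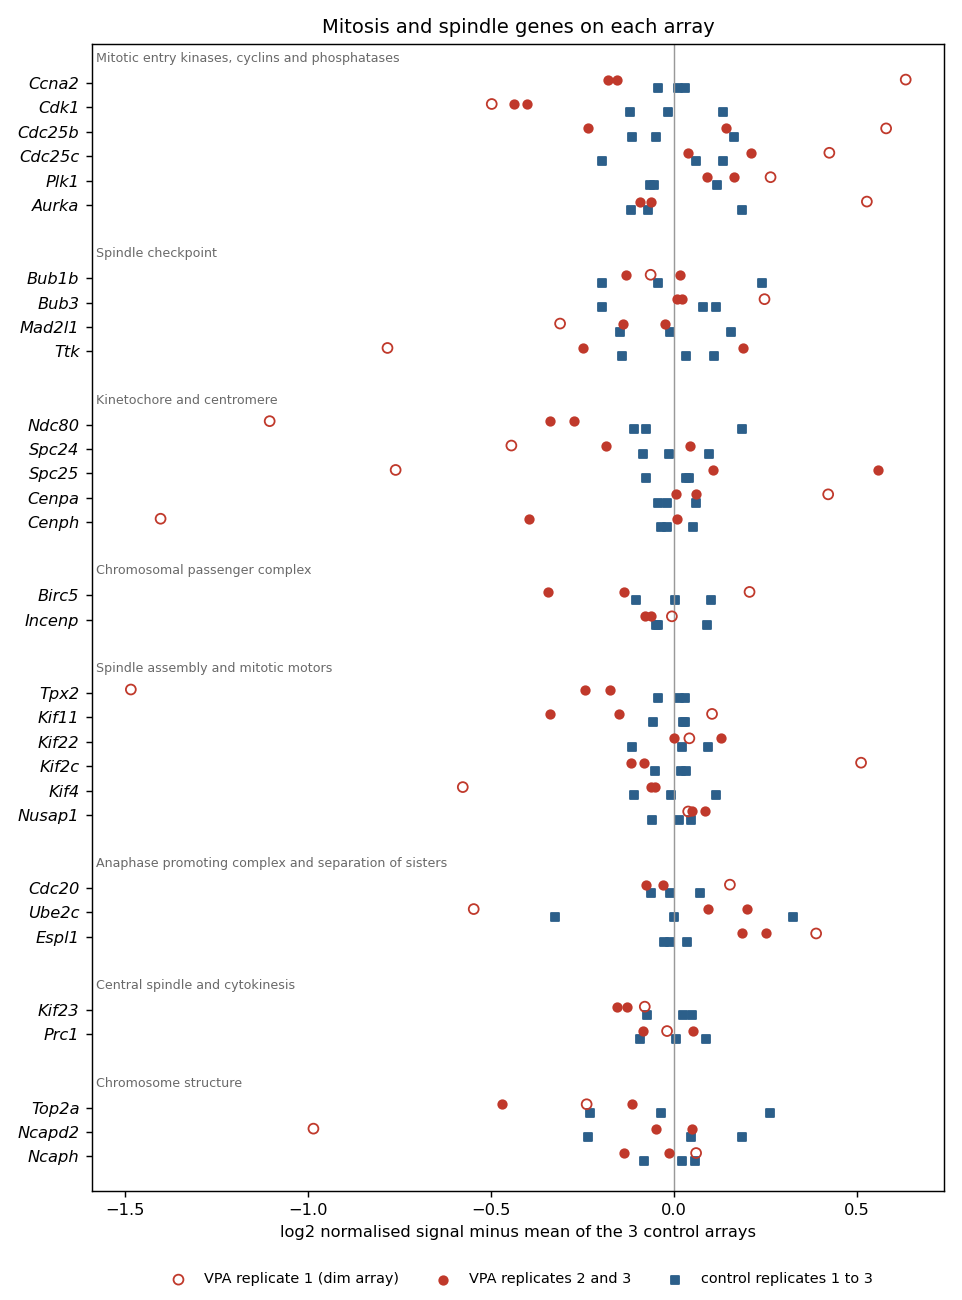
Normalized log2 signal of each of the 31 genes on each array, minus the mean of that gene's 3 control arrays, for VPA replicate 1 (open red circles), VPA replicates 2 and 3 (filled red circles) and the controls (blue squares). VPA replicate 1 lies from -1.48 to 0.63, whereas VPA replicates 2 and 3 lie between -0.47 and 0.56.

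Read array by array, VPA replicate 2 had more of the genes below the controls than above, and VPA replicate 1 as many below as above. On VPA replicate 1, 13 of 31 genes lay below all 3 controls and 13 above, beside 39.3% and 44.5% of all genes. On VPA replicate 2, 14 lay below and 3 above, and on VPA replicate 3, 11 below and 7 above, where 32.9% to 33.0% of all genes lay below and 32.9% to 34.1% above. VPA replicate 1 was the lowest of the 6 arrays for 11 genes and the highest for 13, beside 33.5% and 38.6% of all genes. The SD of the 31 deviations from the control mean was 0.58 on VPA replicate 1, 0.17 and 0.20 on VPA replicates 2 and 3 and 0.07 to 0.13 on the control arrays. Over all genes it was 0.76, 0.42 and 0.44 on VPA replicates 1 to 3. Each control array is part of the control mean, which narrows its own deviations, so SDs of VPA and control arrays are not directly comparable. The groups did not overlap for 4 genes below the controls (Cdk1, Ndc80, Tpx2 and Kif23), against 11.2% of all genes, and for 1 above (Espl1), against 16.7%. Leaving out VPA replicate 1, they did not overlap for 9 genes below and 3 above, against 21% and 23.2% of all genes. The sign of the change differed between the 2 fits for 8 of 31 genes, Ccna2, Cdc25b, Aurka, Spc25, Kif2c, Cdc20, Ube2c and Ncapd2.

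Of the 31 genes, 9 had more than 1 detected probe, 23 probes in all. The 2 Cdk1 probes gave -0.44 and -0.45 with 6 arrays and -0.42 and -0.26 with 5. The dimmer one was kept only through its detection on the 3 control arrays. The Spc24 probes differed by 0.019 with 6 arrays. Cdc20 had the widest range, with 3 bright probes at 0.00, 0.02 and 0.02 and a dim one, detected on 5 arrays, at -0.90 ± 0.29 (adjusted p = 0.172). That dim probe had log2 signals of 5.49, 5.96 and 5.32 on the VPA arrays and 7.04, 6.02 and 6.43 on the control arrays. The probes of Kif4 gave -0.23, -0.33 and -0.78, or -0.06, -0.40 and -0.67 without VPA replicate 1, so the brightest was the nearest to 0 in both fits. The adjusted p of the Kif4 probe at -0.78 (0.167) and of the dim Cdc20 probe (0.172) lay below that of the brightest Cdk1 probe (0.174), as did with 5 arrays that of the Birc5 probe at -0.64 (0.0721 against 0.0943). The probes of Ncapd2 gave -0.33, -0.43 and -0.69. Without VPA replicate 1 the Ncapd2 probes were at 0.00063, 0.17 and 0.01. By limma 0 of the 45 kept probes of these genes passed at adjusted p 0.05, with or without VPA replicate 1. Ndc80 also had a probe that was not detected on any array beside the one detected on all 6, so a probe without detection does not show that a transcript was missing.

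**Figure D3:**
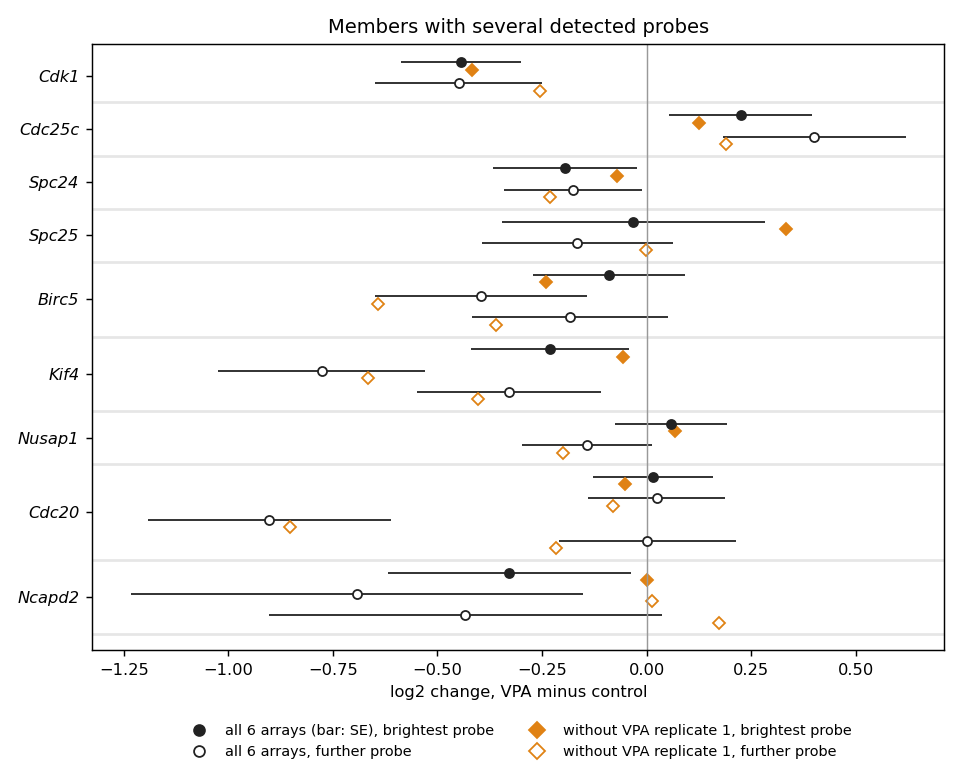
Log2 change with VPA of every kept probe of the 9 genes with several, from all 6 arrays (black circles, bar is 1 SE) and without VPA replicate 1 (orange diamonds), the brightest probe of a gene filled and the others open. With all 6 arrays 1 of 4 Cdc20 probes lies at -0.90 and the others near 0.

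Other genes of the cell cycle were followed in 8 lists, with 132 of 187 genes measured. By limma 1 of the 132 rose and 0 fell at adjusted p 0.05, beside 3.41% and 0.314% of all genes. At an unadjusted p-value below 0.05, 6 were higher and 7 lower, beside 11.5% and 5.59% of all genes. The gene that rose was Cdkn1c, the inhibitor of cyclin-dependent kinases also known as p57. It had log2 signals of 9.65, 8.53 and 8.62 on the VPA arrays and 7.03, 7.29 and 7.45 on the control arrays, a 3.19-fold rise (1.67 ± 0.31, adjusted p = 0.0321), or 2.49-fold without VPA replicate 1 (adjusted p = 0.00372). Its adjusted p was 0.109 to 0.169 without any one control array and 0.0563 without VPA replicate 2, which ended the call. The call also ended with the deposited log2 values (adjusted p = 0.0514) and with no detection filter (adjusted p = 0.0800). Of the other 3 inhibitor genes measured, 0 passed.

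Without VPA replicate 1, 3 of the 132 rose and 3 fell, beside 6.2% and 1.59% of all genes, so neither count is read as a result about the cell cycle genes. Beside Cdkn1c, the rises were the retinoblastoma gene Rb1 (log2 change 0.95, adjusted p = 0.00487) and Ncaph2, a subunit of condensin II (0.48, adjusted p = 0.0448). The falls were Dsn1, a kinetochore subunit of the MIS12 complex (-0.72, adjusted p = 0.0149), Haus4, of the augmin complex of the spindle (-0.65, adjusted p = 0.0300), and Tyms, thymidylate synthase (-0.62, adjusted p = 0.0458). With all 6 arrays these 5 had changes of 0.76 (Rb1), 0.58 (Ncaph2), -1.16 (Dsn1), -0.74 (Haus4) and -0.39 (Tyms), with adjusted p from 0.0592 to 0.425. The FoxM1 and B-Myb genes, whose proteins activate mitotic genes, had changes of -0.15 (Foxm1) and -0.04 (Mybl2).

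By list, the 22 other kinetochore and checkpoint genes had a median log2 change of -0.24, or -0.12 without VPA replicate 1, with the widest differences over 6 arrays in Dsn1 and in its partner Nsl1 (0.45 in both fits). The 22 other genes of the spindle, centrosome and cytokinesis had a median of -0.11, or -0.043 without that array. Beside Haus4, Ckap2l differed most there with 6 arrays (-0.63, or -0.53 with 5). The 12 cohesin and condensin genes had a median of -0.11, or -0.028 with 5 arrays, and beside Ncaph2 the cohesin gene Smc3 differed most with 6 arrays (-0.30, or -0.061 with 5). The 11 genes of the anaphase promoting complex had -0.09, or -0.08 with 5 arrays. Its subunit genes Cdc26 and Cdc27 were at -0.60 and -0.45 with 6 arrays and at -0.084 and -0.25 with 5. The median of the 14 other regulators of mitotic entry changed sign, with 0.07 over 6 arrays (9 genes above 0 and 5 below) and -0.07 over 5 (5 above and 9 below). Geminin (Gmnn), held in this list although it is not a regulator of mitotic entry, was at -0.55 with 6 arrays and -0.25 with 5. Ensa, which restrains a phosphatase that opposes Cdk1, was at -0.49 and -0.18. The 16 cell cycle transcription regulators had -0.05, or -0.03 with 5 arrays, and beside Rb1 E2f2 differed most with 6 arrays (0.35, or 0.06 with 5). The 31 replication and G1/S genes had -0.23, or -0.13 without the dim array, 25 of them below 0 with 6 arrays and 21 with 5, and Mcm3 and Lig1 differed most with 6 arrays (-0.66 and -0.61, or -0.93 and -0.30 with 5). Of these medians none carries a test, and a difference between the mitotic and the replication genes was not tested.

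**Figure D4:**
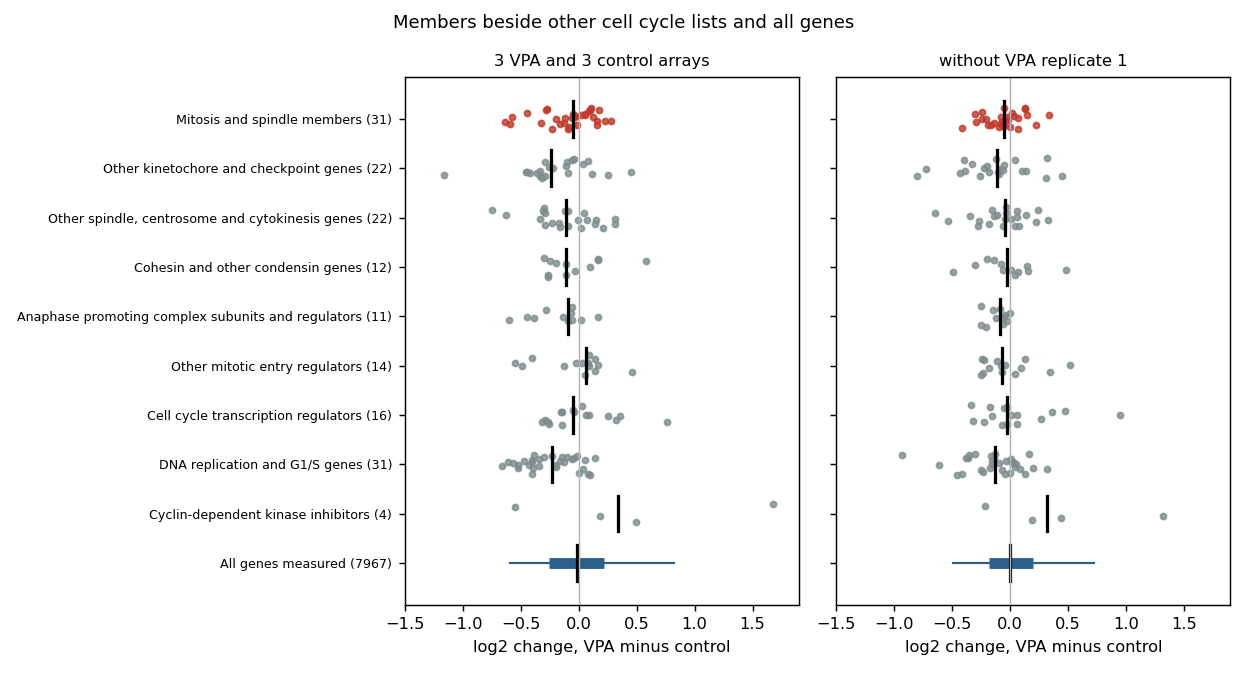
Log2 change with VPA of each measured gene (dots) and the median (black bars) for the 31 mitosis and spindle genes (red) and for 8 other cell cycle lists (grey), with numbers of genes in brackets, from all 6 arrays (left) and without VPA replicate 1 (right). The bottom row gives all 7967 genes, the thick bar from the 25th to the 75th and the thin line from the 5th to the 95th percentile. The mitosis and spindle genes lie between -0.63 and 0.28 on the left and between -0.42 and 0.33 on the right, and Cdkn1c is the dot farthest to the right in both.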

How the data were processed

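Total RNA of 3 VPA and 3 control cultures was measured on 1 array each. Per the file headers, the deposited table holds raw signal intensities of 25697 probes and a detection p-value for each, and per the submitters' processing notes GenomeStudio, of unstated version, was used. A second deposited table holds log2 values whose columns share one distribution, with steps not given in the sources used here, and served as an alternative. In limma 3.58.1 under R 4.3.3, neqc corrected the background from the detection p-values with an offset of 16, quantile normalized and took log2, which widens the changes of dim probes. The 11115 probes (43.3%) with detection p under 0.05 on at least 3 arrays were fitted with lmFit and eBayes, VPA minus control, with Benjamini-Hochberg adjustment over all of them. Errors are SE of that fit. Probes were named by the GEO platform annotation, and the brightest kept probe stands for a gene.

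The members, the lists and the rule for naming genes were chosen with earlier results of these data known. Signals per array are given for members past the threshold (none were), for the 8 with the largest change and for 9 measured genes of a fixed list. Ccna2 and Kif23 were added after their values were seen, as were Tyms, Foxm1 and Mybl2 among the other genes. Of each other list, up to 4 called genes are named, or failing any, the 2 that differed most. Replicate numbers were not used as pairs. The deviations of same-numbered arrays from their group means correlated at 0.13, -0.06 and 0.05. The procedure was tested on simulated signals. It recovered 16 of 67 probes set 1.5-fold apart, 39 of 67 set 2-fold apart and 56 of 64 set 4-fold apart. Of the 11070 probes fitted there, 8 were called falsely. The simulated noise was drawn from the spread of the control arrays alone. For the measured mitosis genes the median SD was 0.22 on the VPA arrays and 0.10 on the control arrays. The recovery counts may therefore be too high for these data, and recovery at the spread of the VPA arrays was not tested. With 6 arrays, their number limits the precision. Alternatives covered background correction, scaling, the deposited values, detection filters, the variance model, array weights, a replicate block, each array left out and the choice of probe.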

Additional observations from a re-analysis of the deposited data

How the results depend on the processing

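The call of 0 higher and 0 lower mitosis and spindle genes held in 17 of 18 alternatives. The exception was limma's array weights, with Espl1 (0.25) higher and Cdk1 (-0.42), Ndc80 (-0.33), Cenph (-0.38) and Top2a (-0.45) lower, 1 and 4 genes. The weights were 0.09, 13.0 and 0.54 for VPA replicates 1 to 3 and 1.03 to 1.46 for the controls, so VPA replicate 2 nearly alone stood for its group. Under these weights 1365 of all genes were higher and 1128 lower, and 12 and 25 of the other cell cycle genes. The adjusted p of Cdk1 ranged from 0.00645 with array weights to 0.524 without control replicate 1.

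With the replicate block, which is no pairing given by the labels, 178 of all genes were higher and 13 lower, and 0 mitosis genes passed. With each array left out in turn, all genes called ran from 54 to 494 higher and from 5 to 127 lower, and the other cell cycle genes from 0 to 3 in each direction. With VPA replicate 1 dropped before normalization, 477 of all genes were higher and 120 lower, and 3 and 3 of the other cell cycle genes. Detection on all 6 arrays gave 14 of all genes lower. A threshold of adjusted p 0.1 gave 409 higher and 58 lower, and 3 and 1 of the other cell cycle genes. Of those, 2 were higher with median scaling, with no background correction and with a variance trend, 2 higher and 1 lower with probes averaged per gene, and 0 higher with no detection filter.

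The median log2 change of the mitosis genes was 0.020 with median scaling, where that of all genes was 0.09, and -0.07 to -0.02 with single arrays left out. Among the 15 genes with signals given by rule, signs turned for Cdc20, Aurka, Birc5 and Ncapd2, of which Ncapd2 was at -0.33 in the main fit. Cdc20 was at -0.052 with VPA replicate 1 dropped before normalization, -0.065 with array weights, -0.22 with probes averaged per gene, and -0.053 to 0.062 with single arrays left out. Aurka was at -0.078 with VPA replicate 1 dropped before normalization, -0.046 with array weights, and -0.078 to 0.23 with single arrays left out. On leaving out single arrays Birc5 ran from -0.24 to 0.036 and Ncapd2 from -0.52 to 0.00063. The cause of these turns was not tested. Of the 255 repeats of the 15 genes with signals given by rule, 240 kept their direction and their side of the threshold. The 8 members below the detection filter have dim probes. They were fitted only in the alternative with no detection filter, where 0 of 39 members were higher and 0 lower.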
